A study of Mus musculus with 4 samples.

Results

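The immunoglobulin constant regions and the J chain were followed in liver RNA from mice of 4 ages. The genes were 8 symbols chosen by name with earlier results of these same counts in view: the heavy-chain constant genes *Ighm*, *Igha*, *Ighg1*, *Ighg2b* and *Ighg3*, the light-chain constant gene *Igkc*, the J chain gene *Igj* (*Jchain* in RefSeq) and the kappa variable segment *Igkv3-2*, which is not a constant region. Because the counts themselves selected these genes, their levels are given as a description and no test was made on them. Of the 8 symbols, 5 were among the 33924 symbols counted and 4 had a count in at least 1 library. The symbols *Igha*, *Ighg2b* and *Ighg3* were not among those counted and no value is given under them, and IgA was not analysed here.

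All mice were male C57BL6 animals (C57BL/6Rj in the methods of the study) for which no transgene or treatment is named, and the labels differ by age only: 3 months (labelled young), 9 months (adult), 15 months (old) and 21 months (very old). For each age, the same amount of liver RNA from 24 mice, 4 at each of 6 times of day, was pooled into 1 library, so that the spread between animals cannot be seen and no comparison of ages has a replicate check. Uncapped RNA had been digested and 35 bp reads were sequenced from the capped 5' ends. The counts on genes were 955934, 958586, 525772 and 735962 at 3, 9, 15 and 21 months. In each library, between 72.2% and 76.7% of the records had no unique alignment and are not part of any gene count. The 8 hepatocyte markers, *Alb* among them, summed to between 85436 and 99391 cpm (counts scaled to the same total on genes, 1000000), so that the labelled tissue was seen in every library. In pooled tissue, fewer cells of a type and less RNA per cell cannot be told apart.

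An antibody is built from heavy and light chains, each made of a variable part that binds antigen and a constant part. The constant part of the heavy chain sets the class. *Ighm* encodes the mu constant region of IgM, the first class that a B cell makes, and class switching replaces it by the gamma, epsilon or alpha constant genes further along the locus. The J chain links IgM and IgA into polymers, which the polymeric immunoglobulin receptor carries across epithelia, in rodents from liver cells into bile. In the mature mRNA of a rearranged locus, the capped 5' end lies at the leader exon of the variable segment, and the constant exons follow downstream of it.

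The variable segments with the most counts are shown with the 150 bases before the annotated start, because the reads came from capped 5' ends and these bases hold the promoter of each segment. Capitals mark the octamer, ATTTGCAT (ATGCAAAT on the other strand), the element of immunoglobulin promoters that the Oct factors bind. All sequences are from the mouse genome build NCBIM37 (mm9), read in the direction of the gene: *Igkv3-2*, chr6:70648312-70648461, plus strand; *Igkv5-48*, chr6:69677120-69677269, minus strand; *Igkv1-135*, chr6:67559589-67559738, plus strand; *Igkv16-104*, chr6:68375449-68375598, plus strand.
Igkv3-2: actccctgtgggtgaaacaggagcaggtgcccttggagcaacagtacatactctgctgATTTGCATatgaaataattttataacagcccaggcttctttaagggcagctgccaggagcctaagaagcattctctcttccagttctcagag
Igkv5-48: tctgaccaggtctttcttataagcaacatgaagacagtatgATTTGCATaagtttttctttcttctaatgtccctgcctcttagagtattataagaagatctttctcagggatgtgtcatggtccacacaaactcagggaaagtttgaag
Igkv1-135: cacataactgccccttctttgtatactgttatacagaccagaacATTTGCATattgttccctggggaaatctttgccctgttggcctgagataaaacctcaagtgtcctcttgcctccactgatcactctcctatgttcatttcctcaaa
Igkv16-104: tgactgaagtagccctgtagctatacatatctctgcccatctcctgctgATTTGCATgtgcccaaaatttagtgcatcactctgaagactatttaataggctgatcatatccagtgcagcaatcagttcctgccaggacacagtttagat

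The octamer stood 84 bases before the start of *Igkv3-2*, and 101, 98 and 93 bases before *Igkv5-48*, *Igkv1-135* and *Igkv16-104*. It was found on either strand in the 150 bases before 62 of the 102 kappa V segments in the files (60.8%) and before 20 of the 24 with a count (83.3%). Among 32851 RefSeq promoters (GRCm38.p6), 328 (0.998%) held it in the 150 bases before the transcript start. These starts are unlike positions, so the shares are not measured alike. The start of a V segment is that of its annotated first exon, which for *Igkv3-2* opens with the start codon. The distances above are thus not counted from the capped 5' end, and the windows can include transcribed bases. The 300-base promoter window of *Jchain* held none. These matches describe the letters of the windows only.

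*Ighm* (ENSMUSG00000076617.2, chr12:114659078-114660941, minus strand, annotated as a constant gene) had 2, 8, 19 and 39 counts at 3, 9, 15 and 21 months. This equals 2.09, 8.35, 36.1 and 53 cpm, with exact Poisson 95% intervals of 0.253 to 7.56, 3.6 to 16.4, 21.8 to 56.4 and 37.7 to 72.4. These intervals, and all others given here, cover counting error only. *Ighm* was lowest in the young library and highest in the oldest one, and the intervals at 3 and 9 months did not reach those at 15 and 21 months. Between 3 and 21 months the level was 25.3-fold higher (exact Clopper-Pearson 95% interval 6.56 to 217), with only 2 counts behind the young value. Between 9 and 21 months, which does not use the young library, it was 6.35-fold higher (2.93 to 15.7). The step from 3 to 9 months was 3.99-fold (0.796 to 38.6) and that from 15 to 21 months 1.47-fold (0.827 to 2.69), and both intervals include equal levels, whereas the step from 9 to 15 months was 4.33-fold (1.81 to 11.4).

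*Ighg1*, which encodes the gamma-1 constant region of IgG1 (chr12:114567187-114568734, minus strand), had 0 counts at every age. A count of 0 allows up to 3 counts as a one-sided limit, which is tighter than the upper end of the exact intervals. This limit equals 3.14, 3.13, 5.71 and 4.08 cpm at 3, 9, 15 and 21 months. Its share of the heavy-chain constant counts was 0 of 39 at 21 months, which allows up to 7.69% by the limit of 3 counts (exact interval up to 9.03%), and 0 of 68 over all libraries, which allows up to 4.41% (exact interval up to 5.28%). All 68 heavy-chain constant counts in the 4 libraries were thus from *Ighm* (100%, exact 95% interval 94.7 to 100). The capped 5' end of a switched transcript also lies in its variable segment. A 0 at a constant gene thus does not measure how much of that class was made. The same holds for a rearranged *Ighm* transcript. Counts in the exons of *Ighm*, and their share of 100%, do not measure how much IgM mRNA was present.

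The other heavy-chain constant genes in the files were at 0 in every library as well. They were *Gm900* (the epsilon constant gene *Ighe* in RefSeq), *Ighg2c*, *Ighg* and *AI324046*. The last 2 symbols are not paired with a RefSeq gene in the tables used here. By position, *Ighg* lies between *Ighg2c* and *Ighg1*, where RefSeq has *Ighg2b*, and *AI324046* lies between *Ighg1* and *Ighm*, where RefSeq has *Ighg3*, so that these rows may hold both genes under other symbols. Counts of similar genes can be lost when a read matches more than 1 of them, so the first exons are shown in part. The first 60 bases of the first constant exon of *Ighm* (chr12:114660882-114660941, minus strand), the only heavy-chain gene with counts, and of *Ighg1* (chr12:114568675-114568734, minus strand) are given in lower case. In *Ighg*, *Ighg2c* and *AI324046*, capitals mark the bases that differ from *Ighg1* or have no partner in it in a global alignment of the exons.
Ighm: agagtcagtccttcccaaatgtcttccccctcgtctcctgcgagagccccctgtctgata
Ighg1: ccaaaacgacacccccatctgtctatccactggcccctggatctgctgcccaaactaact
Ighg: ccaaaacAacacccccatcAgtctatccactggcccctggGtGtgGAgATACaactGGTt
Ighg2c: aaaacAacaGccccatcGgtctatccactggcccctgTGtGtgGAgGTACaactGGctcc
AI324046: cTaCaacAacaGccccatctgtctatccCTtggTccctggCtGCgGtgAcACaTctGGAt

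Over the whole first exon, *Ighg1* was identical to *Ighm* in 53% of the aligned columns, to *Ighg* in 88.3%, to *Ighg2c* in 87.3% and to *AI324046* in 79%. To see how much of each gene a 35-base read could place uniquely, every 35-base window of its exons was looked up on both strands of the genome, allowing 1 mismatch. None of the 1231 windows of *Ighm* had a second match, and only 39 of the 838 windows of *Ighg1* (4.65%) had one. For *Ighg2c* and *Ighg*, 36.7% and 28.6% of the windows had one, mostly in each other. Most windows of *Ighg1* occur once, while a part of *Ighg* and *Ighg2c* could not receive unique reads. The windows cover whole exons, whereas the reads came from capped 5' ends. The part of shared sequence in the 0 counts was not tested.

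**Figure D1:**
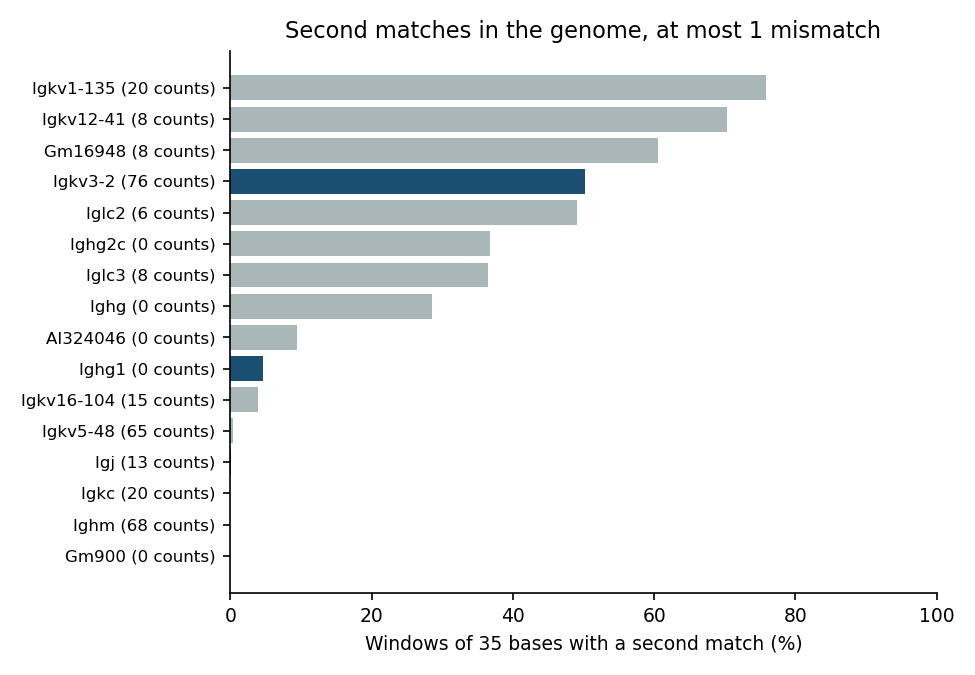
Share of 35-base exon windows with a second match in the genome (%, at most 1 mismatch) for the constant genes, the J chain gene and the 6 variable segments with the most counts, with the counts over the 4 libraries beside each name. Dark bars are *Ighm*, *Ighg1*, *Igkc*, *Igj* and *Igkv3-2*; *Ighm* and *Igkc* had no such window, and *Igkv3-2* had 50.2%.

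*Igkc* encodes the constant region of the kappa light chain (chr6:70676429-70676751, plus strand, a single exon of 323 bases). It had 0, 13, 1 and 6 counts at 3, 9, 15 and 21 months, or 0, 13.6, 1.9 and 8.15 cpm. The adult library was the highest and the order did not follow age. Against the limit of 3 counts at 3 months, and with the older count taken as it stands, *Igkc* was at least 4.32-fold higher at 9 months and at least 2.6-fold higher at 21 months. The exact interval at 3 months (0 to 3.86 cpm) lay below that at 9 months (7.22 to 23.2) but overlapped that at 21 months (2.99 to 17.7). The old library, with a single count, stood at 0.14 of the adult level (0.0033 to 0.934), and the very old library at 0.601 of it (0.187 to 1.7), an interval that includes equal levels.

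The balance of *Igkc* to *Ighm* does not depend on the scaling of the libraries. It compares counts in constant exons, which lie downstream of the capped 5' end in a rearranged transcript. *Igkc* had 1.62 counts per *Ighm* count at 9 months (0.624 to 4.52), 0.0526 at 15 months (0.00127 to 0.331) and 0.154 at 21 months (0.0532 to 0.366). The interval of the adult library did not overlap those of either older library.

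Lambda light chains have constant genes of their own, of which *Iglc2* had 0, 3, 0 and 3 counts and *Iglc3* 0, 0, 0 and 8 counts at 3, 9, 15 and 21 months. Of the light-chain constant counts, *Igkc* held 13 of 16 at 9 months (81.2%, 54.4 to 96) and 6 of 17 at 21 months (35.3%, 14.2 to 61.7), so that the intervals overlapped. Between 36.5% and 49.1% of the windows of *Iglc3* and *Iglc2* had a second match, and their counts are uncertain for that reason.

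*Igj* encodes the J chain (chr5:88949537-88956916, minus strand, protein coding). It had 0, 3, 3 and 7 counts at 3, 9, 15 and 21 months, or 0, 3.13, 5.71 and 9.51 cpm. Its order followed age, but neighbouring ages were not distinguishable, and even between 9 and 21 months the ratio of 3.04 had an interval of 0.694 to 18.2. With the count at 21 months taken as it stands, it was at 3.03 times the limit of 3 counts at 3 months. The exact intervals (3.82 to 19.6 against 0 to 3.86 cpm) just overlapped.

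Per *Ighm* count there were 0.375 *Igj* counts at 9 months (0.0641 to 1.56), 0.158 at 15 months (0.0299 to 0.536) and 0.179 at 21 months (0.0677 to 0.406). These 3 intervals overlapped, and *Igj* was present wherever *Ighm* had more than 2 counts. Only 2 of its 1678 windows (0.119%) had a second match.

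*Igkv3-2* is 1 of the variable segments that can be joined, through a J segment, to *Igkc* (chr6:70648462-70649061, plus strand). It had 0, 15, 15 and 46 counts at 3, 9, 15 and 21 months, or 0, 15.6, 28.5 and 62.5 cpm. With the older counts taken as they stand, it was at 4.99, 9.09 and 19.9 times the limit of 3 counts at 3 months. These values leave out the counting error of the older libraries at 9, 15 and 21 months. The exact intervals at these ages began at 8.76, 16 and 45.8 cpm, above the 3.86 cpm that the interval at 3 months reached. The very old library was above all others, at 2.19 times the old one (1.2 to 4.22) and at 3.99 times the adult one (2.19 to 7.7). The old and the adult library did not differ beyond counting error, with a ratio of 1.82 (0.831 to 4).

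Of the 291 windows of *Igkv3-2*, 146 (50.2%) had a second match, most often in *Igkv3-1*, *Igkv3-4* and *Igkv3-3*. Of the 8 *Igkv3* segments in the files, only *Igkv3-2* and *Igkv3-10* had counts, and *Igkv3-10* had all of its 5 at 3 months, the library in which *Igkv3-2* had none. Both segments share sequence, and 61 windows of *Igkv3-2* also matched *Igkv3-10*. The part of this sharing in their counts was not tested.

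**Figure D2:**
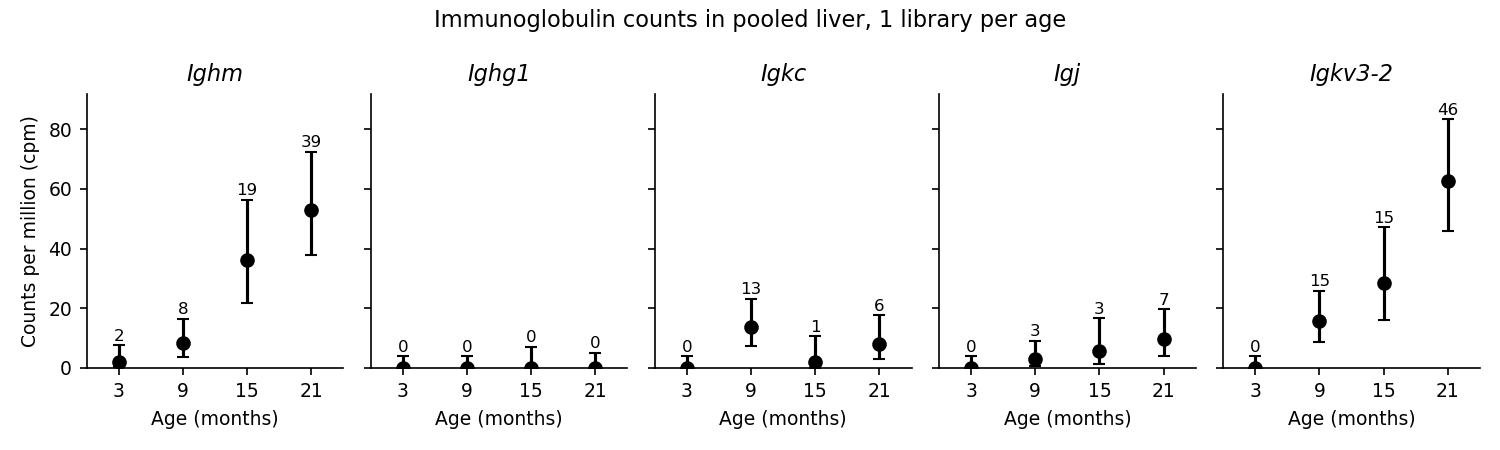
Level in cpm against age in months for the 5 genes that were counted, with 1 point per library, exact Poisson 95% intervals as bars and the raw count above each bar. *Ighm* and *Igkv3-2* were highest at 21 months with 39 and 46 counts, *Igkc* was highest at 9 months with 13, and *Ighg1* had 0 at every age.

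Added together, the 5 genes had 2, 39, 38 and 98 counts at 3, 9, 15 and 21 months. Their summed level was 2.09 cpm at 3 months (0.253 to 7.56), 40.7 at 9 months (28.9 to 55.6), 72.3 at 15 months (51.1 to 99.2) and 133 at 21 months (108 to 162). The summed level was higher at each older age. Relative to 3 months it was 19.4-fold higher at 9 months (5.03 to 166), 34.5-fold at 15 months (8.93 to 296) and 63.6-fold at 21 months (17.2 to 533). All 3 of these values rest on 2 *Ighm* counts in the young library. Without that library, the level at 21 months was 3.27 times that at 9 months (2.24 to 4.87), with steps of 1.78 (1.11 to 2.85) to 15 months and 1.84 (1.25 to 2.75) from there. Leaving out *Igkv3-2*, the ratios to 3 months were 12 (2.97 to 104), 20.9 (5.17 to 183) and 33.8 (8.89 to 286). The level at 21 months was then 2.82 times that at 9 months (1.71 to 4.79). The steps of 1.75 from 9 to 15 months (0.942 to 3.23) and 1.62 from 15 to 21 months (0.971 to 2.77) both included equal levels.

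A gene was counted as higher or lower when its cpm differed at least 2-fold from 3 months, among genes with at least 20 counts over both libraries. In the whole table, 7.2% of the genes were higher and 10.6% lower at 9 months, 9.65% higher and 10.4% lower at 15 months, and 8.96% higher and 10.2% lower at 21 months. None of the 5 chosen genes reached 20 counts at 9 months. At 15 months *Ighm* reached it and was higher, and at 21 months *Ighm* and *Igkv3-2* reached it and were higher. They passed the minimum only through the older library, so that these counts lend no support of their own.

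The measure of the study, the variance over age of the centered log-ratio (clr, the natural logarithm of a count over the geometric mean of the genes with a count in every library), exists only for *Ighm* among these genes. The study kept only genes seen at least 20 times in 1 library, whereas 1 count in every library was enough here. The clr of *Ighm* was -2.1, -0.693, 0.658 and 1.1 at 3, 9, 15 and 21 months, and its variance was 2.09. Of the 8704 genes with a count at every age, 6 had a higher variance, and the median variance was 0.16. *Ighm* was chosen with these counts in view, so that its rank lends no support of its own. The value also rests on 2 counts at 3 months. The variance that counting error would give, estimated as the mean of 1 over each count of *Ighm*, was 0.176.

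**Figure D3:**
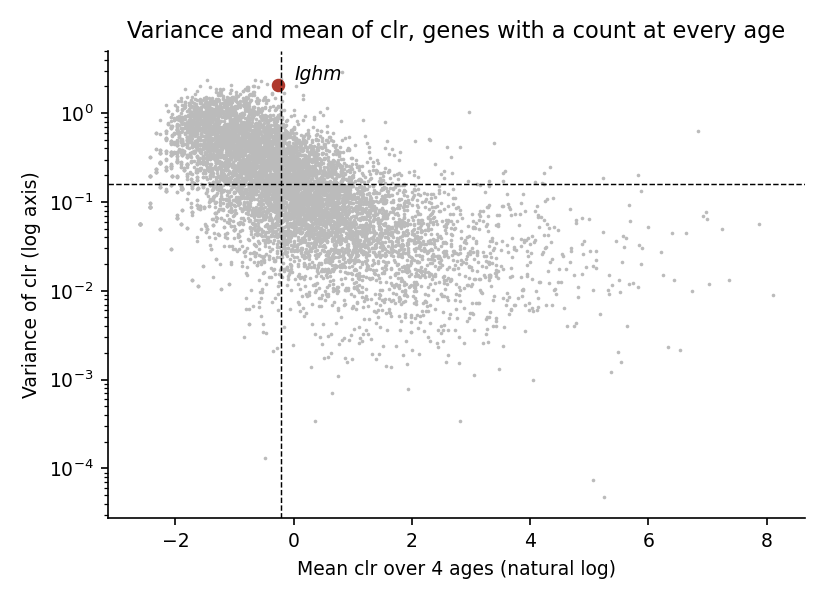
Variance of the clr over the 4 ages (log axis) against the mean clr (natural log), with 1 grey dot for each of the 8704 genes with a count in every library and dashed lines at both medians. *Ighm*, the red dot, lies at a variance of 2.09, where the median is 0.16.

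The other immunoglobulin genes were summarised in the same way, to place the chosen genes among all that were counted. Of 253 other immunoglobulin genes in the files, 31 had a count, 28 of these were at 0 at 3 months and 22 had their highest cpm at 21 months. Together they had 18, 54, 32 and 99 counts at 3, 9, 15 and 21 months, or 18.8, 56.3, 60.9 and 135 cpm, and the ratio of 21 to 3 months was 7.14 (4.29 to 12.5). Of all immunoglobulin and J chain counts, the chosen genes held 2 of 20 at 3 months (10%, 1.23 to 31.7) and 98 of 197 at 21 months (49.7%, 42.6 to 56.9). Their share at 9 months, 41.9% (31.8 to 52.6), and at 15 months, 54.3% (41.9 to 66.3), overlapped with that at 21 months.

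*Igkv5-48*, the variable segment with the most counts after *Igkv3-2*, behaved differently from it in the young library. It had 11, 24, 7 and 23 counts at 3, 9, 15 and 21 months, or 11.5, 25, 13.3 and 31.3 cpm, and was 2.72-fold higher at 21 than at 3 months (1.27 to 6.17). Only 0.358% of its windows had a second match. It made up 61.1% of the kappa V counts at 3 months (35.7 to 82.7) and 18.7% at 21 months (12.2 to 26.7), and these intervals did not overlap.

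*Igkv3-2* held 0 of the 18 kappa V counts at 3 months, which allows up to 16.7% by the limit of 3 counts (exact interval up to 18.5), then 24.6% at 9 months (14.5 to 37.3), 35.7% at 15 months (21.6 to 52) and 37.4% at 21 months (28.8 to 46.6). From 9 months on these shares did not differ beyond counting error. The number of kappa V segments with a count, out of 102, was 3, 13, 8 and 19 at the 4 ages, and it moved with the kappa V counts of 18, 61, 42 and 123. *Igkv1-135* had 0, 0, 12 and 8 counts and *Igkv16-104* had 0, 4, 1 and 10.

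Variable and constant parts of a chain were not counted in the same ratio at both loci. At the kappa locus there were 244 V counts and 20 *Igkc* counts over the 4 libraries, or 12.2 V counts per constant count (7.73 to 20.3). At the heavy-chain locus there were 21 V counts and 68 constant counts, all from *Ighm*, or 0.309 V counts per constant count (0.18 to 0.51). The same direction was seen within the adult, the old and the very old library: the kappa ratio was 4.69 (2.55 to 9.31), 42 (7.14 to 1698) and 20.5 (9.15 to 56.9), and the heavy-chain ratio 0.625 (0.161 to 2.17), 0.263 (0.0768 to 0.729) and 0.282 (0.13 to 0.562). At 3 months there were 18 kappa V counts and no *Igkc* count, and no heavy V count beside 2 *Ighm* counts. The share of exon windows with a second match was 61.2% over the kappa V segments and 68.7% over the heavy V segments, while *Igkc* and *Ighm* had none, and the part of such matches in the ratios was not tested.

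**Figure D4:**
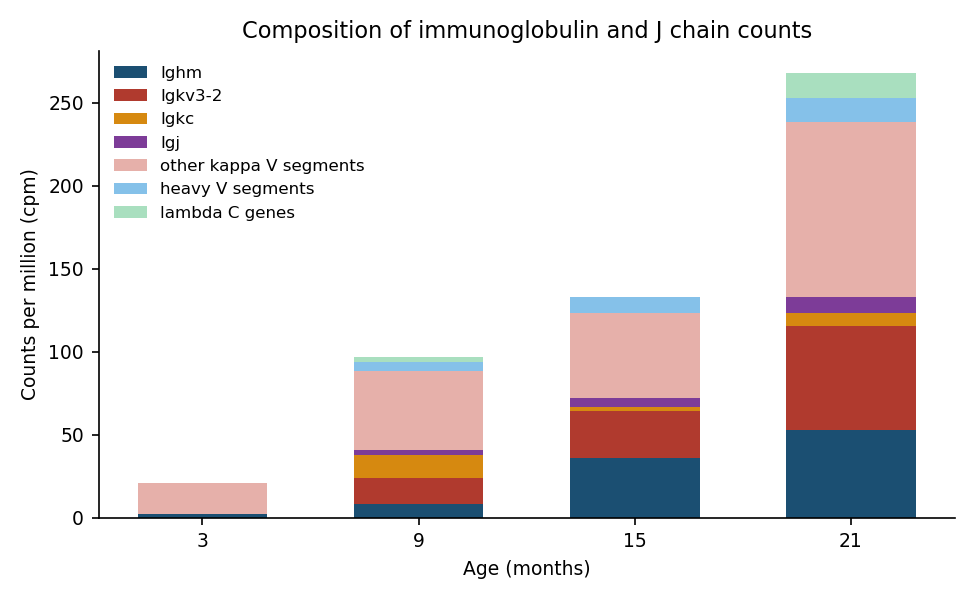
Stacked levels in cpm of *Ighm*, *Igkv3-2*, *Igkc*, *Igj*, the other kappa V segments, the heavy V segments and the lambda C genes at 3, 9, 15 and 21 months, with 1 library per age. The stacks reach 20.9, 97, 133 and 268 cpm, and kappa V segments other than *Igkv3-2* make up nearly all of the stack at 3 months.

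The plasma cell genes summed to 608, 497, 540 and 643 cpm at 3, 9, 15 and 21 months, and of the 6 out of 17 that reached 20 counts none was 2-fold higher or lower at 21 months, with a median log2 ratio of -0.12 (all genes: -0.00123). Of all genes, 8.96% were higher and 10.2% lower at 21 months. At 9 months 1 of 6, *Ell2*, was lower, where 10.6% of all genes were. It had 31, 14, 10 and 20 counts at 3, 9, 15 and 21 months. Most counts of the list came from *Sdc1* (130, 141, 64 and 134), *Xbp1* (136, 110, 69 and 84), *Txndc5* (132, 97, 59 and 103) and *Edem1* (95, 76, 61 and 100), which hepatocytes also express. The defining plasma cell genes *Prdm1*, *Pou2af1*, *Tnfrsf17* and *2010001M09Rik* (*Mzb1* in RefSeq) had 0 counts in every library, and *Irf4* had 6, 0, 0 and 4.

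The B cell genes summed to 69, 57.4, 85.6 and 73.4 cpm, and the only 1 of 22 that reached 20 counts between 3 and 21 months, *Cd37*, had 21, 10, 18 and 15 counts at 3, 9, 15 and 21 months and was 2-fold lower at 9 months. *Lyn*, a kinase of B cells and macrophages, had 10, 15, 17 and 5 counts and was 2-fold higher at 15 months only. *Cd37* and *Lyn* were the only 2 of the list that reached 20 counts at 9 and at 15 months. Of all genes, 10.6% were lower at 9 months and 9.65% higher at 15 months. The B cell receptor genes *Cd79a* and *Cd79b* had 0, 2, 1 and 2 counts and 1, 1, 1 and 0 counts, and *Ms4a1* and *Pax5* had 0 in every library. The recombinases *Rag1* and *Rag2* were at 0 throughout, and none of the 8 switching and recombination genes reached 20 counts.

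Markers of other blood cells were read beside these lists. The T cell markers summed to 7, 15, 11 and 24 counts, or 7.32, 15.6, 20.9 and 32.6 cpm. Of the 12, 4, 6, 6 and 8 had a count at 3, 9, 15 and 21 months (all genes: 11818, 12262, 11124 and 11695 of 33924). *Cd2* gave 10 of the 24 counts at 21 months (0, 2, 1 and 10), while *Cd4* had 0, 1, 5 and 1, *Cd8b1* 3, 0, 1 and 2 and *Lck* 1, 1, 0 and 0. The markers of NK cells were at 2.09, 3.13, 0 and 5.44 cpm and those of neutrophils at 2.09, 1.04, 15.2 and 5.44 cpm, and no gene of either list reached 20 counts. Red blood cell markers, a sign of blood in the tissue, were at 1609, 2365, 1708 and 1376 cpm, highest in the adult library and lowest in the very old one, where the summed immunoglobulins were highest. The Kupffer cell and macrophage markers were at 889, 1024, 1010 and 1188 cpm, and 1 of 11, *Marco*, was 2-fold higher at 21 months, with 10, 18, 20 and 30 counts, a share close to the 8.96% of all genes. At 9 months 1 of 11, *Vsig4*, was higher (17, 43, 12 and 19 counts), where 7.2% of all genes were. At 15 months *Marco* was higher and *Cd68* lower (25, 41, 6 and 21 counts), each 1 of 11. Of all genes, 9.65% were higher and 10.4% lower at 15 months. The part of these cells in the immunoglobulin counts was not tested.

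**Figure D5:**
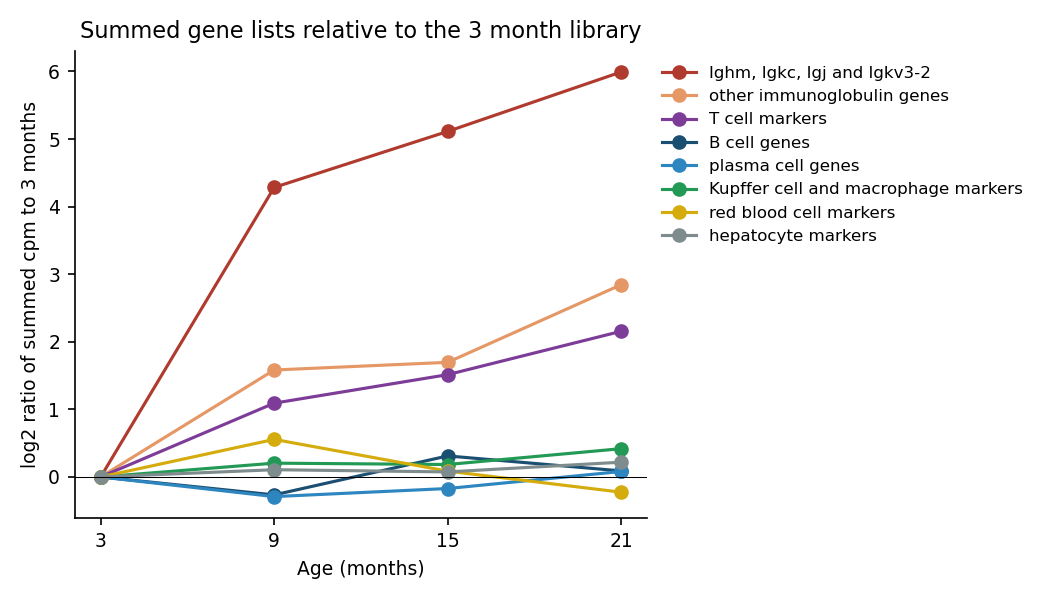
Log2 ratio of summed cpm to the 3 month library against age in months, with 1 line per gene list and 1 library per age. The summed *Ighm*, *Igkc*, *Igj* and *Igkv3-2* lie highest of the 8 lines at every older age, with the other immunoglobulin genes and the T cell markers below them, while the B cell and plasma cell lists stay near 0.

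The genes that carry or bind antibodies were present at every age. *Pigr*, the polymeric immunoglobulin receptor, had 559, 764, 490 and 545 counts at 3, 9, 15 and 21 months, or 585, 797, 932 and 741 cpm, so that it was highest in the old library. *Fcgrt*, which protects IgG from degradation, had 283, 238, 145 and 152 counts, *Fcgr2b*, the inhibitory IgG receptor, had 77, 100, 35 and 54, and *Fcer1g*, the signalling chain of Fc receptors, had 35, 33, 16 and 28. None of the 4 genes of this list with 20 counts was 2-fold higher or lower at 21 months, where 8.96% of all genes were higher and 10.2% lower. The median log2 ratio of these 4 genes was -0.04 (all genes: -0.00123). At 9 months 1 of 6, *Fcgr3*, was higher, where 7.2% of all genes were. It had 1, 26, 13 and 11 counts and reached the minimum only through the adult library. The median at 9 months was 0.392 (all genes: -0.0641).

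Of the chemokines and cytokines that attract or keep plasma cells, which summed to 390, 475, 491 and 507 cpm at 3, 9, 15 and 21 months, 4 of 15 reached 20 counts between 3 and 21 months, with a median log2 ratio of 0.44. *Cxcl12* had 302, 327, 183 and 279 counts, *Vcam1* 51, 83, 46 and 60, and *Tgfb1* 13, 18, 7 and 10. *Cxcl13*, which attracts B cells, was the 1 of these 4 past 2-fold, with 6, 21, 18 and 17 counts at 3, 9, 15 and 21 months. With 6 counts at 3 months, it reached the minimum mainly through the older library. Of all genes, 8.96% were higher at 21 months, and their median log2 ratio was -0.00123.

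The 5 other genes with the age profile nearest to the summed immunoglobulins were sought among 4313 genes with at least 20 counts in at least 1 library, by the root mean square difference of log2 cpm (0.5 counts added) after taking off each mean over the 4 libraries. They were *Dpy19l3* (difference 0.673, with 3, 24, 24 and 37 counts), *Lcn2* (0.831, with 0, 9, 32 and 23), *Fgfr4* (0.966, with 3, 10, 14 and 28), *Wdfy4* (0.975, with 1, 20, 5 and 14) and *Fcgr3* (0.999, with 1, 26, 13 and 11). *Lcn2* encodes lipocalin-2, an acute-phase protein, *Fgfr4* the receptor for the bile acid signal of the gut, and *Fcgr3* an activating IgG receptor. Each had at most 3 counts in the young library. With 4 libraries, a likeness of this kind is a description of those libraries.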

How the data were processed

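Liver RNA of 4 age classes was measured, with 1 library per age. The authors digested uncapped RNA, sequenced 35 bp reads from capped 5' ends on 1 SOLiD lane and used the CLC Genomic workbench to map them to mm9. Raw counts per gene symbol were deposited, not normalised, with HTSeq named in the submitters' processing notes. Versions, annotation and strand setting were not given in the sources used here. Rows for unassigned records were left out of the totals.

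The counts were divided by the total on genes (cpm). Exact Poisson and Clopper-Pearson 95% intervals were calculated with scipy 1.17.1 in Python 3.11.15. Ratios to 0 used a floor of 3 counts and took the other count as it stands, without its counting error. Scale factors for alternatives came from edgeR 4.0.16 and DESeq2 1.42.0 in R 4.3.3. The fold rule was tested on simulated counts. Positions are from GENCODE M1 on NCBIM37, with which 33923 of 33924 symbols matched.

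The genes and lists were chosen with earlier results of these data known. Named were the chosen genes, all other immunoglobulin constant genes, the 3 other segments with the most counts, the 5 nearest profiles, genes of a count of 5 or fewer and, per list, the 4 genes with the most counts and the 2 with the largest change past 2-fold; defining markers at or near 0, *Ell2*, *Cd2*, *Vsig4*, *Cd68*, *Igkv3-10* and genes sharing windows were named after their values were seen.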

Additional observations from a re-analysis of the deposited data

How the results depend on the processing

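With 1 library per age, no value has a replicate error. The 2 counts of the chosen genes in the young library set the precision of every ratio of their sum to 3 months. That library was not shallow, with 955934 counts on genes. Under the geometric mean of the genes with a count in every library, TMM, DESeq2 size factors and the 7 normalisation genes of the study, the summed level remained 17.9- to 20.5-fold (9 months), 31.6- to 34.6-fold (15 months) and 62- to 63.9-fold (21 months) above 3 months. With all immunoglobulin genes and *Igj* in the sum, the ratios were 4.64, 6.36 and 12.8, because the other segments had 18 counts at 3 months. The share of genes past 2-fold depended on the minimum count. With at least 1 count in each library, 13.1%, 19.1% and 17% were higher at 9, 15 and 21 months, and 18.4%, 13.9% and 15.3% lower. With at least 100 counts over both libraries, 1.18%, 1.95% and 1.42% were higher and 3.2%, 3.42% and 2.84% lower. Of the chosen genes, 1 was higher at each of 9, 15 and 21 months with at least 1 count in each library, which only *Ighm* has. With at least 100 counts, which none reached, 0 were higher at each of these ages. No ratio without *Ighm* exists to 3 months, where the other chosen genes had no count. Shares of the heavy-chain constant genes were the same with all such genes in the denominator, and the same 5 nearest genes were found with 1 count added. No paired analysis was possible because each age has 1 library.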

Other observations

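In the young library, the 20 immunoglobulin counts came from 4 genes, *Igkv5-48* (11), *Igkv3-10* (5), *Igkv2-109* (2) and *Ighm* (2), with no count of *Igkc*, *Igj* or any heavy V segment. Of the other immunoglobulin genes with a count, 13 of 31 had 1 or 2 counts over the 4 libraries, so that the order of ages cannot be read from them singly. The lambda C genes had 0, 3, 0 and 11 counts at 3, 9, 15 and 21 months while none of the 3 lambda V segments had a count at any age.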
